A study of Homo sapiens with 6 samples.

Results

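The messenger RNAs of 6 genes of cellular iron homeostasis, TFRC, FTH1, FTL, IREB2, ACO1 and SLC11A2, were examined for contact with IGF2BP3, an RNA-binding protein, in HCT116 cells. A cluster is a group of overlapping reads that PARalyzer called from their T-to-C conversions. It was given to one of these genes when 1 nt or more of it lay on an exon of the gene, strand included, in GENCODE release 44. This rule took 228 of the 244645 clusters of the series, and the 6 genes are among 11988 genes with an exon under a cluster. HCT116 is a human colorectal carcinoma line, and the cells used carried the Tet-OsTIR1 construct with puromycin resistance, shared by all libraries. The cells grew with 100 µM 4-thiouridine during 15 h before UV crosslinking, and reverse transcription turns crosslinked 4-thiouridines into T-to-C changes of the reads. IGF2BP3 was precipitated in 5 libraries, which differed in the RNase used in the lysate and on the beads. RNase I was used at 0.05/0.05, 0.1/0.025 and 0.05/0.025 and RNase T1 at 1/1 and 0.25/0.25, the first number being the U/µL in the lysate and the second that on the beads. A control IgG was used in 1 library, with RNase I at 0.1/0.025. Each condition had 1 library, so that no test between conditions was possible and every interval covers counting error only. The RNase I 0.05/0.05 and RNase T1 1/1 libraries were electroeluted from the gel and the other IGF2BP3 libraries were recovered from crushed gel, so that the on-beads concentration of RNase I and the concentration of RNase T1 cannot be told apart from gel extraction. The antibody also partially recognizes IGF2BP2, a close paralog, a contamination that the paper asks to keep in mind. Some of the reads given here to IGF2BP3 may therefore come from IGF2BP2.

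Iron enters cells bound to transferrin through the transferrin receptor, which TFRC encodes. It leaves the endosome through the divalent metal transporter encoded by SLC11A2 and is stored in ferritin, a shell built from the heavy chain of FTH1 and the light chain of FTL. ACO1 and IREB2 encode the iron regulatory proteins. When iron is scarce, these bind iron-responsive elements, short hairpins with a 6-nt loop, which blocks translation of ferritin mRNAs from their 5′UTR and stabilizes TFRC mRNA through its 3′UTR. IGF2BP3 belongs to a family of cytoplasmic proteins that bind mostly in 3′UTRs and are known for protecting their target mRNAs.

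Because iron-responsive elements are the regulatory sites of these mRNAs, the exons of all annotated transcripts of the 6 genes were searched for their letters. The search asked for a C, 5 bases, the loop CAGTGN and 5 bases that pair with the first 5, with G-T pairs allowed. It found 6 elements, 4 in the 3′UTR of TFRC and 1 each in the 5′UTR of FTH1 and FTL. They are printed here as DNA letters of GRCh38 in the direction of the RNA, 5′ to 3′, with 6 bases of flank on each side and the loop in capitals.
FTH1 element: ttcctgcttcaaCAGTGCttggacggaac
FTL element: ctcttgcttcaaCAGTGTttggacggaac
TFRC element 1: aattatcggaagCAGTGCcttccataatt
TFRC element 2: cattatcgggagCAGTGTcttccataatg
TFRC element 3: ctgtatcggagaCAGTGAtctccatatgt
TFRC element 4: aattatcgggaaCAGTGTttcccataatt
The FTH1 element lies at chr11:61967574-61967602 on the minus strand and the FTL element at chr19:48965335-48965363 on the plus strand. The 4 TFRC elements lie on the minus strand of chromosome 3, at chr3:196050979-196051007, chr3:196050575-196050603, chr3:196050510-196050538 and chr3:196050463-196050491. Among 20046 canonical protein-coding mRNAs, the same letters occurred in the 5′UTR of 0.0948% and in the 3′UTR of 0.609%. A match of these letters is a description of the sequence, and elements of another form would not be found.

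The depth of the libraries limited what could be seen. The clusters of the 5 IGF2BP3 libraries held between 182448 reads with RNase T1 0.25/0.25 and 2362467 reads with RNase I 0.05/0.05, whereas the IgG clusters held 324 reads. None of the IgG clusters lay on the 6 transcripts. At this depth a count of 0 allows a share of up to 0.926% of the IgG reads (3 reads), and the 6 transcripts together held between 0.147% and 0.185% of the reads with IGF2BP3, so that a difference from IgG was not detectable. Of 8 epithelial marker genes, 2 to 6 had clusters in each IGF2BP3 library, and KRT20 and VIL1 had none in any. The 7 markers of blood, endothelium, fibroblasts and liver had none in any library. Gene levels are given as CPM, the cluster reads of a gene relative to the total of cluster reads in that library.

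Copies of the ferritin genes in the genome bear on every value of FTH1 and FTL. Of the 30-nt windows of the FTH1 and FTL clusters, 45.5% and 49.9% occurred exactly at another place in GRCh38, and none of those of the other 4 transcripts did. Only 3 of 39 FTH1 and 3 of 26 FTL clusters were copied whole. How reads with several equal matches were placed is not given in the sources used here, so that the levels of both transcripts are uncertain. On 25 annotated FTH1 pseudogenes there were 745, 100 and 242 reads with RNase I and 74 and 0 with RNase T1, and on 16 FTL pseudogenes 716, 148, 192, 136 and 63. The levels were therefore also computed without any cluster that holds a copied window, a choice made after the values were seen. FTH1 then kept 36.0, 28.6 and 37.3 CPM in the libraries of RNase I 0.05/0.05, 0.1/0.025 and 0.05/0.025, and 70.0 and 137 CPM in those of RNase T1 1/1 and 0.25/0.25. FTL kept 2 clusters, of 11 reads with RNase I 0.1/0.025 and of 10 reads with RNase T1 1/1. Every cluster of both transcripts that reaches into the 5′UTR was among those left out. A cluster left whole if any of its windows was copied, so that longer clusters left more readily. The median length of all clusters was 54, 53 and 52 nt in the RNase I libraries and 33 and 37 nt in the RNase T1 libraries. At the FTH1 stop codon the RNase I 0.05/0.05 cluster of 158 reads left. Within its span a RNase T1 1/1 cluster of 29 reads stayed and another of 26 reads left.

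TFRC was among the transcripts with the most IGF2BP3 reads of this group. With RNase I it had 618 CPM at 0.05/0.05 (95% Poisson interval 587 to 651), 355 CPM at 0.1/0.025 (315 to 398) and 416 CPM at 0.05/0.025 (369 to 468). With RNase T1 it had 706 CPM at 1/1 (658 to 756) and 439 CPM at 0.25/0.25 (348 to 546). Both electroeluted libraries were the highest, with intervals apart from those of the other 3, and the values of the 2 enzymes overlapped. By level, TFRC was at rank 220 of 11080 genes with RNase I 0.05/0.05 and at rank 152 of 8723 genes with RNase T1 1/1. Its rank was 610 of 7605 with RNase I 0.1/0.025, 484 of 7282 with RNase I 0.05/0.025 and 490 of 3716 with RNase T1 0.25/0.25.

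FTL, the ferritin light chain, had more reads than TFRC in 4 of the 5 libraries on a far shorter mRNA, although the intervals overlapped with RNase I 0.05/0.05. Its levels were 642 CPM (610 to 675), 517 CPM (468 to 569) and 738 CPM (674 to 806) with RNase I 0.05/0.05, 0.1/0.025 and 0.05/0.025. The RNase T1 libraries had 299 CPM at 1/1 (268 to 332) and 740 CPM at 0.25/0.25 (620 to 876), the lowest and the highest value of the 5. FTH1, the heavy chain with ferroxidase activity, had 356 CPM (332 to 381), 376 CPM (335 to 421) and 465 CPM (415 to 520) in the RNase I libraries. It had 191 CPM (167 to 218) with RNase T1 1/1 and 340 CPM (260 to 436) with RNase T1 0.25/0.25. All 3 RNase I values of FTH1 were thus above both RNase T1 values, with the interval at RNase T1 1/1 apart from those of RNase I and the interval at 0.25/0.25 overlapping them. Without the clusters that hold a copied window this order turned, and all 3 RNase I values were below both RNase T1 values. That filter removes longer clusters more readily, and clusters were longer with RNase I. The turned order therefore cannot be told apart from an effect of the filter.

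IREB2, which encodes iron regulatory protein 2, had 166 CPM (150 to 183), 192 CPM (163 to 224) and 151 CPM (123 to 183) with RNase I in the same order. Its RNase T1 values were 333 CPM at 1/1 (300 to 368) and 230 CPM at 0.25/0.25 (166 to 311). All 3 RNase I values lay below both RNase T1 values, with the interval at RNase T1 1/1 apart from theirs and that at 0.25/0.25 overlapping them. ACO1, whose product is iron regulatory protein 1 or a cytosolic aconitase depending on its iron-sulfur cluster, was lower. It had 45.3 CPM (37.1 to 54.7), 28.6 CPM (18.2 to 43.0) and 44.7 CPM (30.2 to 63.9) with RNase I and 40.6 CPM (29.8 to 54.0) with RNase T1 1/1, 4 intervals that overlap. With RNase T1 0.25/0.25 it had 0 reads, which allows up to 16.4 CPM (3 reads). SLC11A2 was below ACO1 in the RNase I libraries and above it with RNase T1 1/1, where their intervals overlapped. It had 20.7 CPM (15.3 to 27.4) with RNase I 0.05/0.05, 5.96 CPM (1.63 to 15.3) from 4 reads with RNase I 0.05/0.025, and 59.6 CPM (46.4 to 75.5) with RNase T1 1/1. It had 0 reads with RNase I 0.1/0.025, which allows up to 3.73 CPM, and 0 with RNase T1 0.25/0.25, which allows up to 16.4 CPM. On its canonical exons alone SLC11A2 had 12.7 CPM with RNase I 0.05/0.05, 0 CPM with RNase I 0.05/0.025 and 32.0 CPM with RNase T1 1/1. The last value is below the 40.6 CPM of ACO1.

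**Figure D1:**
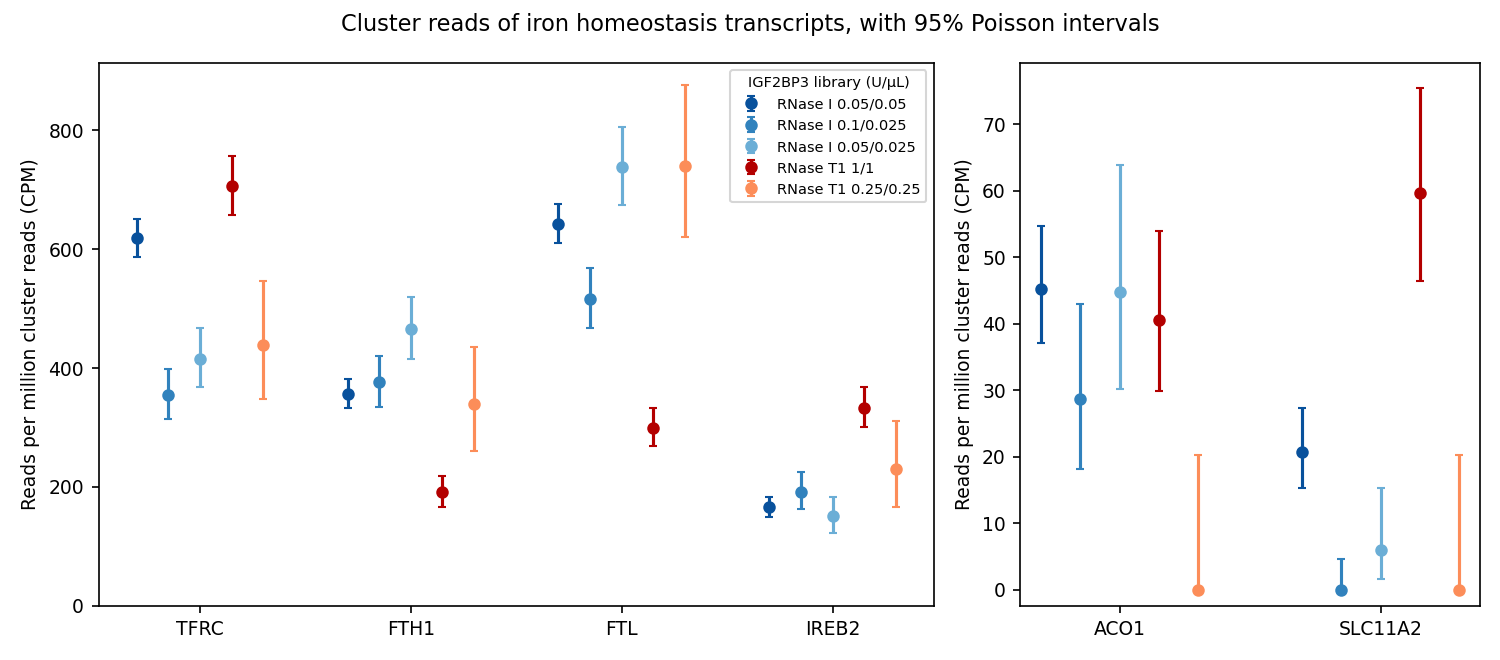
Cluster reads of each transcript in CPM (vertical axes, which differ between the left and the right plot) in the 5 IGF2BP3 libraries, blue for RNase I and red or orange for RNase T1; bars are 95% Poisson intervals, and a point at 0 is a library without clusters. With all clusters kept FTH1 lies higher in the RNase I libraries, an order that turns without clusters that hold a copied window, and IREB2 lies higher in the RNase T1 libraries, FTL spans 299 to 740 CPM within RNase T1, and ACO1 and SLC11A2 stay under 60 CPM. Leaving out those clusters removes longer clusters more readily, and clusters were longer with RNase I.

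Per length of the canonical mRNA, the order of the levels changed. FTL had 343 to 850 CPM per kb over the 5 libraries, FTH1 159 to 387, TFRC 70.8 to 141 and IREB2 23.8 to 52.6, and ACO1 reached at most 6.09 and SLC11A2 at most 7.74. FTL was above FTH1, FTH1 above TFRC and TFRC above IREB2 in each of the 5 libraries. This order rests on the ferritin clusters that hold a copied window. Without them FTH1 had 23.8 to 114 CPM per kb and FTL at most 15.7, and FTH1 was below TFRC in the 4 libraries other than RNase T1 0.25/0.25. These levels are of precipitated RNA, and the abundance of the transcripts in the cells was not measured.

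The order between the enzymes was set against that of all genes. Of 11988 genes with a cluster in an IGF2BP3 library, 17.5% had all 3 RNase I values above both RNase T1 values and 6.05% had all 3 below. FTH1 was 1 of the former and IREB2 1 of the latter among 6 transcripts. With 6 transcripts, a count of 1 cannot be told from these shares. Without the RNase T1 0.25/0.25 library, FTL joined FTH1, and TFRC and SLC11A2 joined IREB2, when 23.0% of all genes were above and 33.9% below the RNase T1 1/1 value. Between the 2 electroeluted libraries, the ratio of RNase I 0.05/0.05 over RNase T1 1/1 was 2.15 for FTL (95% interval 1.91 to 2.42) and 1.86 for FTH1 (1.60 to 2.17). It was 0.876 for TFRC (0.804 to 0.955), 0.499 for IREB2 (0.432 to 0.576) and 0.348 for SLC11A2 (0.236 to 0.509), and for ACO1 it was 1.11, with an interval of 0.784 to 1.61 that includes 1. Over 8076 genes with clusters in both libraries, the median ratio was 0.980 with quartiles of 0.597 and 1.69. The ratios of the ferritin transcripts were thus above the upper quartile of all genes, and those of IREB2 and SLC11A2 below the lower one. Without the clusters that hold a copied window the ratio of FTH1 was 0.514 (0.375 to 0.706), and FTL had 0 reads against 10. The quartiles of all genes were not computed with this filter, so that these values cannot be set against them.

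By the target criteria of the study, a gene needs at least 1 cluster above 10 CPM whose T-to-C conversion events exceed 0.5 per read. TFRC, FTH1, FTL and IREB2 met them in all 5 IGF2BP3 libraries. ACO1 met them in 4 and SLC11A2 in the RNase T1 1/1 library alone, through 1 cluster of 17 reads. For RNase I, 5 of the 6 transcripts met the criteria at 0.05/0.05, against 45.0% of the genes with a cluster. At 0.1/0.025 it was 5 of the 5 transcripts with a cluster, where 63.3% of the genes with a cluster met them. At 0.05/0.025 it was 5 of 6, where 70.1% did. With RNase T1 it was 6 of 6 at 1/1 against 49.3%, and 4 of the 4 transcripts with a cluster at 0.25/0.25 against 80.3%. In the smallest library 10 CPM corresponds to 1.82 reads, and in the largest to 23.6 reads. The first criterion is thus not equally strict across libraries. CPM was taken here over the reads in clusters, which are not library sizes. By this count 4981 genes met both criteria with RNase I 0.05/0.05 and 4300 with RNase T1 1/1. The paper reports fewer targets for either enzyme, so that the calls made here are not those of the study. The cluster behind the SLC11A2 call had 14.7 CPM, so that this call depends on the denominator. Without the clusters that hold a copied window 1 transcript fewer, FTL, met the criteria in each library.

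Conversion events per read on the 6 transcripts followed those of each library. In the RNase I libraries they were 0.649 (95% Poisson interval 0.625 to 0.673) at 0.05/0.05, 0.656 (0.610 to 0.704) at 0.1/0.025 and 0.626 (0.583 to 0.673) at 0.05/0.025. All clusters of these libraries had 0.633, 0.644 and 0.600. With RNase T1 the transcripts had 0.547 (0.514 to 0.581) at 1/1 and 0.549 (0.470 to 0.636) at 0.25/0.25, against 0.511 and 0.547 over all clusters. Only at RNase T1 1/1 did the interval not include the value of all clusters. There FTH1 had 0.697 (0.591 to 0.816), FTL 0.598 (0.519 to 0.686) and ACO1 0.723 (0.501 to 1.01), whereas TFRC had 0.509 and IREB2 0.491. FTH1 was above the value of all clusters in each of the 5 libraries, by an amount outside its own interval only at RNase T1 1/1.

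**Figure D2:**
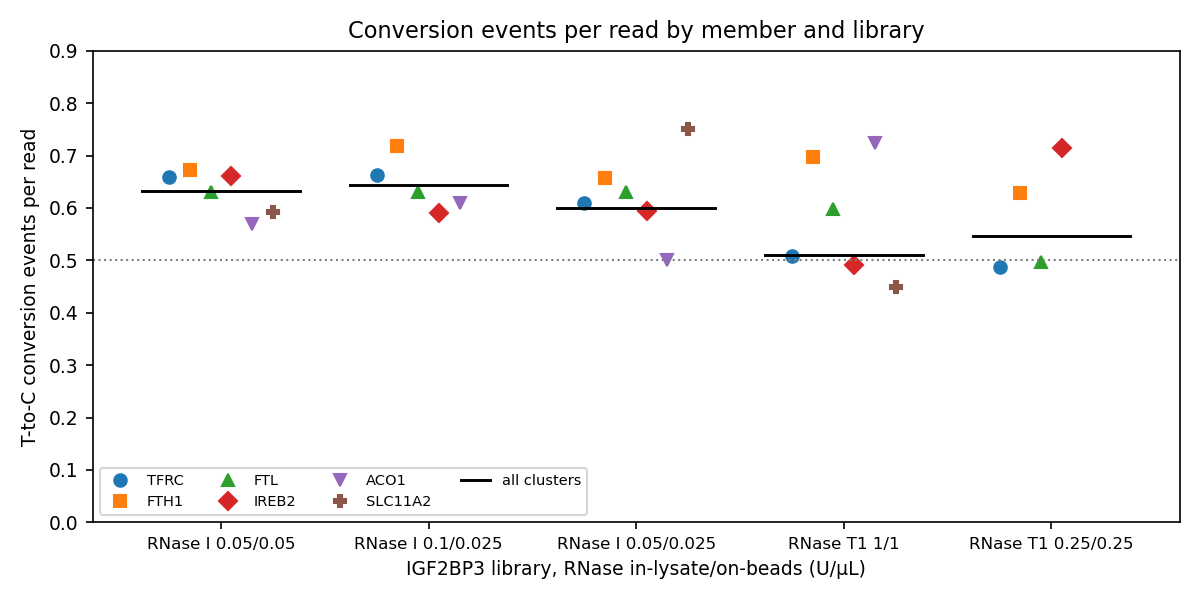
T-to-C conversion events per read (vertical axis) of each transcript with clusters, by IGF2BP3 library; the black lines are the values of all clusters of the library and the dotted line is the criterion of 0.5. Most transcripts lie near the line of their library, FTH1 lies above it in all 5, and the extreme points of ACO1 and SLC11A2 rest on few reads.

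TFRC was contacted mainly in the distal part of its 3′UTR. The gene lies on the minus strand of chromosome 3, and its canonical mRNA of 5012 nt, chr3:196049284-196082090, has a 3′UTR of 2661 nt. Between 86.4% and 93.8% of its reads lay in clusters that overlap this 3′UTR, and the others lay in the coding sequence. Merged over the 5 libraries, its clusters formed 24 sites, of which 3 had reads in every library. The first of the 3 was a coding site at nt 972 to 1096 of the mRNA, with 85, 19 and 25 reads in the RNase I libraries and 34 and 6 in the RNase T1 libraries. The other 2 lay 1257 to 1836 nt and 1937 to 2390 nt after the stop codon. The former had 404, 95, 77, 430 and 36 reads in the same order, and the latter 521, 120, 111, 212 and 38. Together the 3 sites held from 69.1% of the TFRC reads with RNase I 0.05/0.05 to all of them with RNase T1 0.25/0.25. The proximal 3′UTR, up to 1064 nt after the stop codon, held smaller sites, none of which had reads in the RNase T1 0.25/0.25 library.

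Of the TFRC elements printed above, elements 2, 3 and 4 lie within the first of these 3′UTR sites and element 1 lies upstream of it. Element 1, 938 nt after the stop codon, was under a cluster only with RNase I 0.05/0.05, which had 6 reads. Element 2 was touched by a cluster in all 5 libraries, with 59, 11 and 11 reads with RNase I and 74 and 6 with RNase T1, and its loop was inside the cluster in 3 of them. Element 3 was touched in 4 libraries and element 4 in 3. With RNase I 0.05/0.05 both lay whole in a single cluster of 345 reads, nt 3725 to 4184 of the mRNA, with 0.643 conversion events per read. With RNase T1 1/1 the same stretch was split: 6 reads on nt 3729 to 3754, 19 on nt 3775 to 3842 and 47 on nt 3844 to 3983. Its later part, past the elements, held the largest cluster, of 244 reads at nt 4021 to 4155, and 40 reads on nt 4156 to 4187. The reads of a cluster spread over its length, so that reads of a cluster that touches an element need not cover it.

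**Figure D3:**
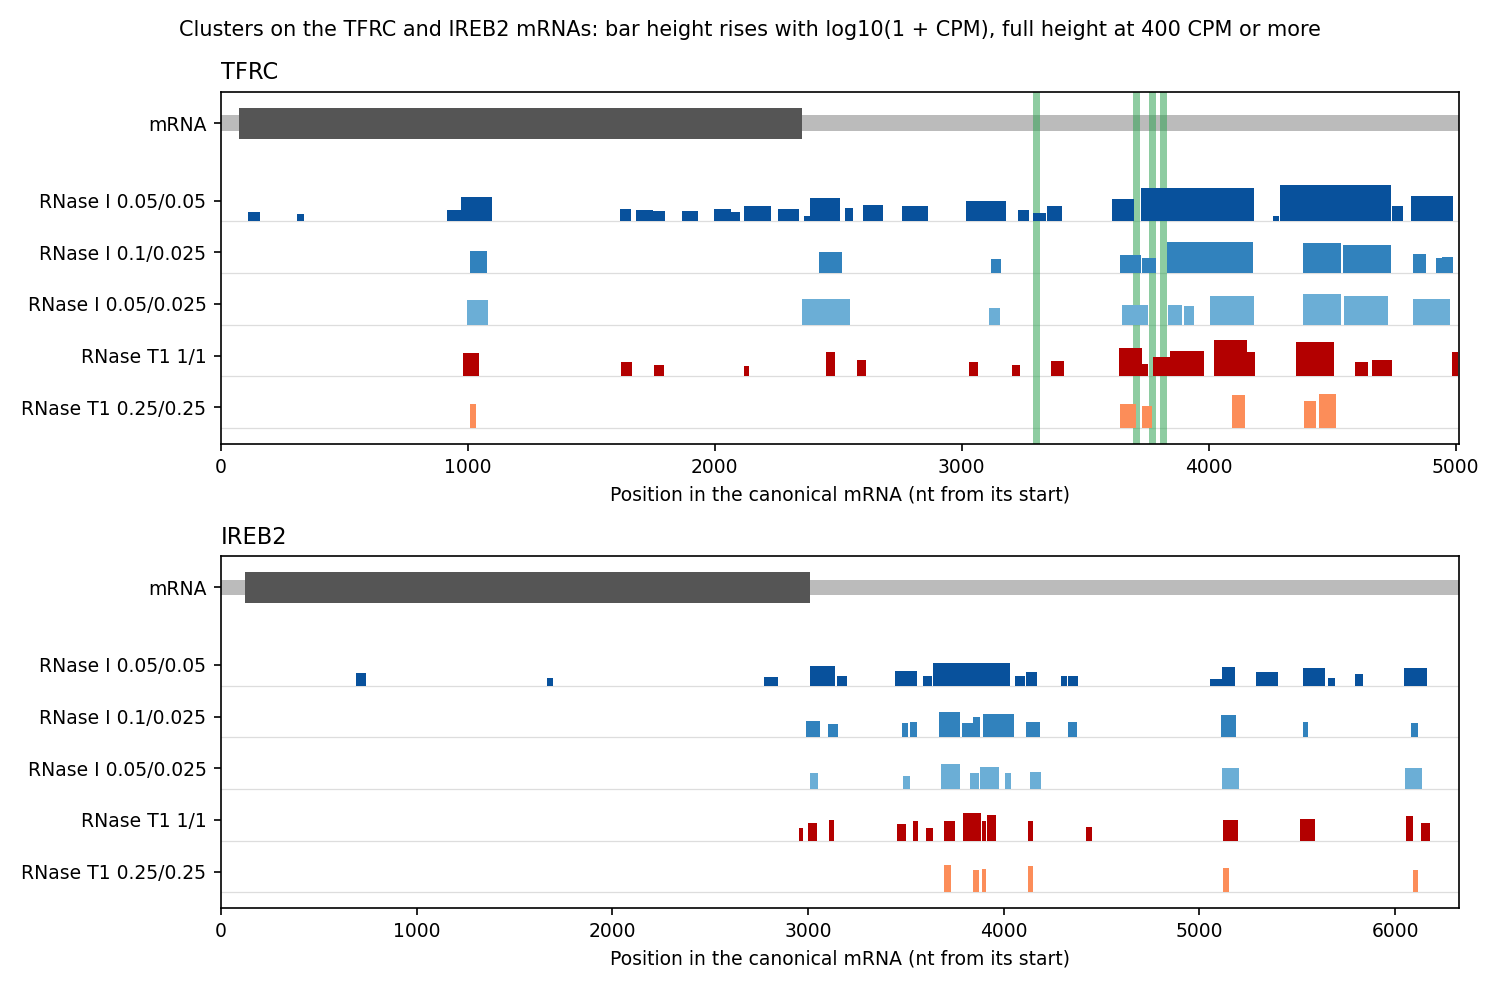
Clusters along the canonical TFRC and IREB2 mRNAs (horizontal axes, nt from the mRNA start) in the 5 IGF2BP3 libraries, with bar height rising with log10(1 + CPM); the dark box is the coding sequence, the light bars are UTRs and the green bands are the 4 TFRC elements. Most bars of both mRNAs lie in the 3′UTR, on TFRC mainly from the second element onward.

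For the ferritin mRNAs the position differed. With 3′UTR counted first over all annotated transcripts, the 6 transcripts together had 63.1%, 60.1%, 57.7%, 85.8% and 56.1% of their reads in 3′UTRs in the order of libraries used above, and all genes 81.4%, 82.7%, 80.7%, 87.4% and 86.7%. Some annotated transcripts of FTH1 and TFRC place a 3′UTR over canonical coding sequence, so that the positions here are those of the canonical transcripts. The canonical FTL mRNA, chr19:48965309-48966879 on the plus strand, has 871 nt and a 5′UTR of 199 nt, and that of FTH1, chr11:61964285-61967634 on the minus strand, has 1203 nt and a 5′UTR of 209 nt. On both, the cluster with the most reads in each library started in the 5′UTR, except for FTH1 with RNase T1 1/1. On FTL this cluster had 904, 240 and 296 reads in the libraries of RNase I 0.05/0.05, 0.1/0.025 and 0.05/0.025 and lay at nt 36 to 298, 71 to 298 and 65 to 301. With RNase T1 it had 188 reads at nt 12 to 202 for 1/1 and 98 reads at nt 80 to 202 for 0.25/0.25. The RNase T1 clusters thus ended at the start codon, with smaller clusters of 4 to 23 reads beyond it, and the RNase I clusters ran on to nt 298 or 301. An exon ends at nt 301, and reads were not aligned across splice junctions, so that no cluster could run on into the next exon. On FTH1 the corresponding clusters had 444 reads at nt 71 to 318, 123 reads at nt 71 to 159 and 135 reads at nt 54 to 243 with RNase I, and 31 reads at nt 71 to 154 and 30 reads at nt 95 to 150 with RNase T1. With RNase T1 1/1 the largest FTH1 cluster, of 67 reads, was in the coding sequence, at nt 496 to 540.

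Since many of these clusters cross the start codon, reads were divided over the canonical regions by the nucleotides of each cluster in them, which takes reads as even along a cluster. The 5′UTR of FTL then held 37.2%, 32.7% and 34.1% of its reads with RNase I 0.05/0.05, 0.1/0.025 and 0.05/0.025, and 53.5% and 70.8% with RNase T1 1/1 and 0.25/0.25. For FTH1 it held 32.2%, 45.3% and 35.5% with RNase I, and 19.9% and 48.4% with RNase T1. Over all genes the 5′UTR share was between 0.365% and 0.567%, and no 5′UTR of TFRC, IREB2, ACO1 or SLC11A2 had a cluster in any library. Among genes with at least 50 reads, 7 of 5103, 4 of 2715 and 3 of 2387 had a higher 5′UTR share than FTL in the RNase I libraries, in the same order. No gene of 3576 and none of 746 exceeded it with RNase T1. For FTH1, between 0 and 20 genes were higher, the largest number with RNase T1 1/1. Dividing the reads in this way was chosen after the values were seen. Where each cluster was given whole to 1 canonical region, with the coding sequence before the 5′UTR, the 5′UTR of FTL held 0% of its reads in all 5 libraries. That of FTH1 then held 2.51%, 40.7% and 0% with RNase I and 19% and 48.4% with RNase T1. The clusters behind these shares all hold a copied window.

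**Figure D4:**
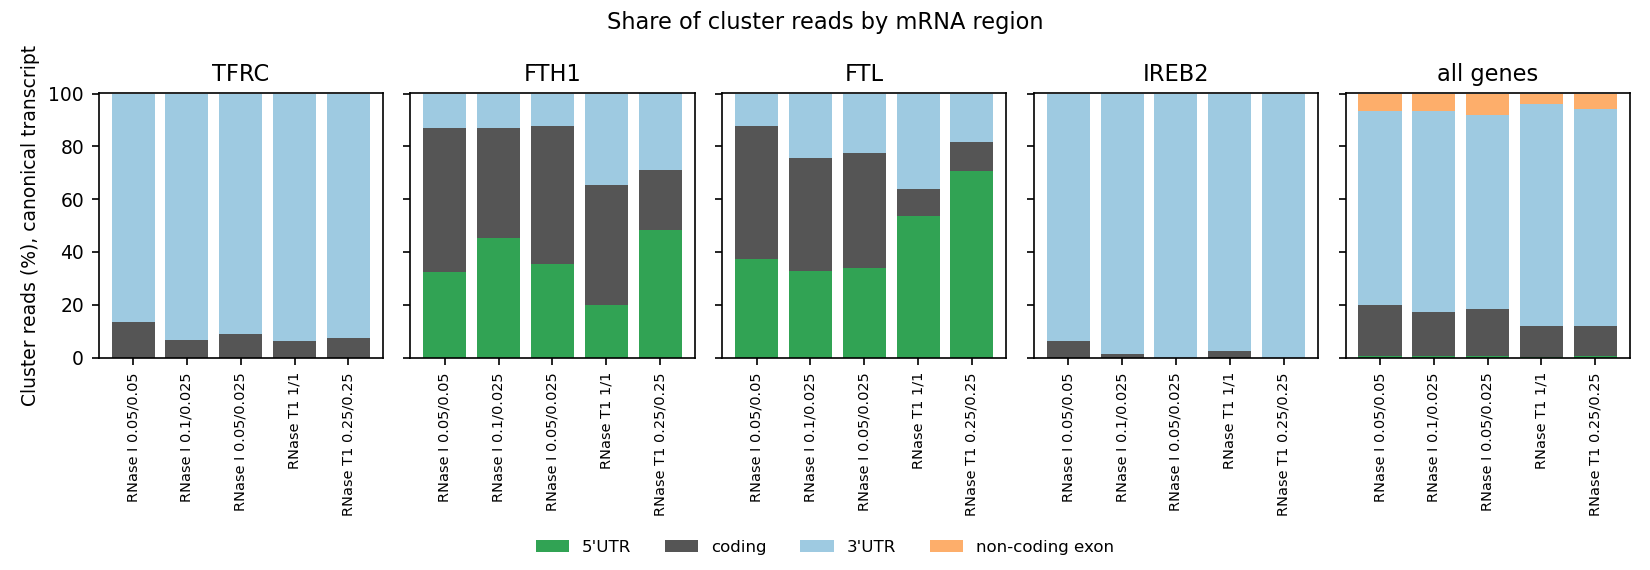
Share of the cluster reads (%, vertical axes) in the 5′UTR, coding sequence, 3′UTR and non-coding exons of the canonical transcript for TFRC, FTH1, FTL, IREB2 and all genes, with 1 bar for each IGF2BP3 library and reads divided by nucleotides. The 5′UTR holds 19.9% to 70.8% of the reads of both ferritin mRNAs and less than 1% of those of all genes.

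The iron-responsive elements of the ferritin mRNAs were at the edges of these clusters. On FTL the element, at nt 27 to 55, had its whole loop under the largest cluster in both electroeluted libraries, and the nearest cluster was 10 to 25 nt away in the other 3 libraries. On FTH1 the element, at nt 33 to 61, had its loop under no cluster in any library. A small cluster upstream of it, at nt 9 to 36 with RNase I 0.05/0.05 and at nt 8 to 38 with RNase T1 1/1, had 21 and 11 reads with 0.286 and 0.273 conversion events per read, under the criterion of 0.5. Downstream, clusters began at nt 71 in 3 libraries, at nt 54 with RNase I 0.05/0.025 and at nt 95 with RNase T1 0.25/0.25. Counting any overlap of 1 nt, 6, 3 and 2 of the 6 elements were under a cluster in the libraries of RNase I 0.05/0.05, 0.1/0.025 and 0.05/0.025, and 5 and 2 in those of RNase T1 1/1 and 0.25/0.25. With the whole loop required, these counts were 4, 2, 1, 3 and 0. Of all 3′UTR matches in genes with clusters, 35.4%, 31.75%, 20%, 20.3% and 15.4% were touched in the same order of libraries. Of the 5′UTR matches, only 3 to 7 a library, 28.6%, 0%, 16.7%, 28.6% and 0% were touched. Both sets include the elements of the 6 transcripts. With RNase I 0.05/0.05 clusters covered 72.5% of the TFRC 3′UTR.

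**Figure D5:**
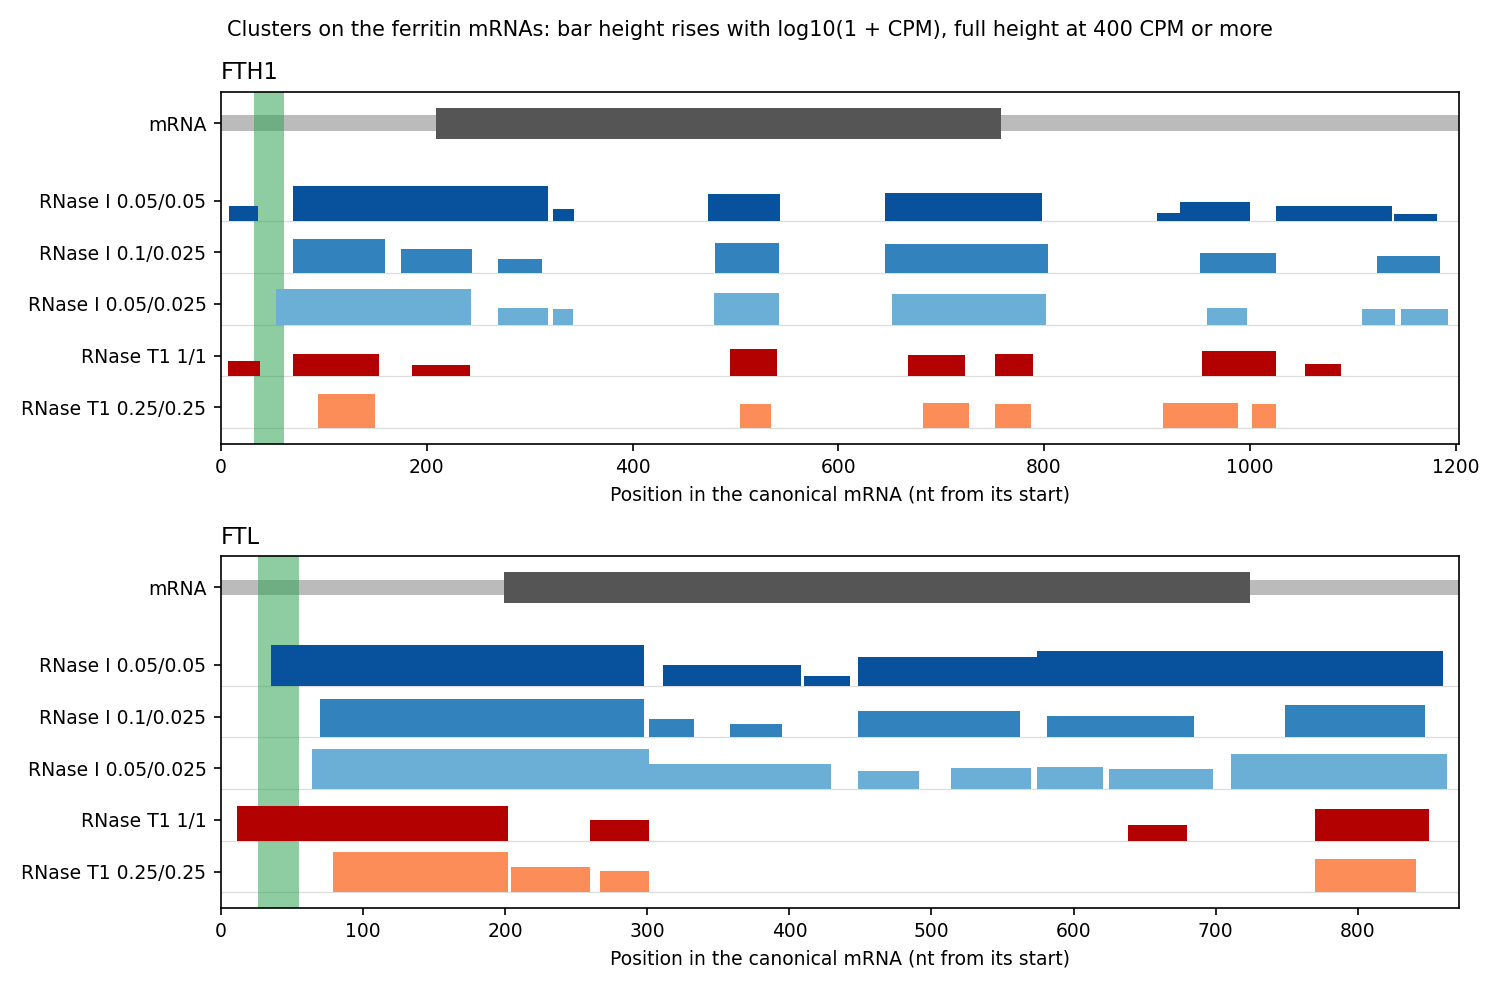
Clusters along the canonical FTH1 and FTL mRNAs (horizontal axes, nt from the mRNA start) in the 5 IGF2BP3 libraries, with bar height rising with log10(1 + CPM); the dark box is the coding sequence, the light bars are UTRs and the green band is the iron-responsive element. On FTH1 the loop of the element is free of bars in all 5 libraries, and on FTL the first bar reaches across it with RNase I 0.05/0.05 and RNase T1 1/1.

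Downstream, FTH1 had 3 further sites with reads in all 5 libraries. The coding site at nt 474 to 543 had 133, 64, 78, 67 and 6 reads, the site across the stop codon at nt 646 to 804 had 158, 58, 67, 55 and 13, and the 3′UTR site at nt 911 to 1025 had 43, 14, 7, 46 and 13. The first of these had the most conversions, with 0.857, 0.922 and 0.885 events per read in the RNase I clusters. On FTL the other site shared by all 5 libraries, at nt 575 to 863, reached from the coding sequence to near the end of the 3′UTR, with 396, 120 and 150 reads with RNase I and 135 and 25 with RNase T1. In the coding sequence between them, nt 302 to 574, FTL had reads in each RNase I library and none in either RNase T1 library. An exon starts at nt 302 and another at nt 575, so that these limits fall on exon edges.

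IREB2 lies on the plus strand of chromosome 15, and its canonical mRNA, chr15:78438216-78501453, has 6324 nt with a 3′UTR of 3313 nt. Its clusters formed 20 sites, and 93.9% to 100% of its reads lay in clusters that overlap the 3′UTR. Of these sites 5 had reads in all 5 libraries, all in the 3′UTR. The 2 largest were adjacent, 628 to 768 nt after the stop codon with 66, 35, 25, 20 and 10 reads, and 770 to 1043 nt after it with 65, 46, 29, 144 and 11. The site nearest the 3′ end, 3035 to 3168 nt after the stop codon, had 29, 6, 15, 60 and 5 reads. The second and the last of these had the most reads with RNase T1 1/1, although that library was smaller than RNase I 0.05/0.05.

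The reads of ACO1 were gathered at the start of a long 3′UTR. The canonical mRNA, chr9:32384643-32454769 on the plus strand, has a 3′UTR of 4661 nt, and all sites but 1 lay 170 to 657 nt after the stop codon. The site at 266 to 463 nt had 68, 23 and 25 reads with RNase I and 6 with RNase T1 1/1. The sites before and after it, at 170 to 213 nt and at 490 to 572 nt, had 19 and 22 reads with RNase T1 1/1, and 0 and 15 with RNase I 0.05/0.05. The sites with the most reads thus differed between these libraries.

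SLC11A2, on the minus strand of chromosome 12 with its canonical mRNA at chr12:50985992-51026384, had 11 sites, 10 of them in 1 library only. The site in 3 libraries, chr12:50981114-50981176, lay in the 3′UTR of an annotated transcript with another last exon than the canonical one, with 14 reads with RNase I 0.05/0.05, 4 with RNase I 0.05/0.025 and 27 with RNase T1 1/1. In the first and the last its conversion events per read were 0.286 and 0.222, and with RNase I 0.05/0.025 they were 0.75, from the 4 reads. No cluster lay in the SLC11A2 coding sequence. The search found no iron-responsive element by its letters in SLC11A2, ACO1 or IREB2. This does not show that they have none, since elements of another form would not be found.

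The study discusses the tetramers CAGT and CATT for IGF2BP3, and CATA was added here. CATA was in 35.6%, 35.9% and 31.6% of the clusters of the 6 transcripts with RNase I and in 30.4% and 27.3% with RNase T1. All clusters of these libraries held it in 22.6%, 23.6%, 22.5%, 21.1% and 22.9%. CAGT, which is also part of the loop of the elements, was in 37.0%, 35.9% and 34.2% of the clusters of the transcripts for RNase I, and all clusters held it in 33.3%, 33.7% and 32.7%. For RNase T1 the shares were 19.6% against 11.01% at 1/1 and 18.2% against 18.1% at 0.25/0.25. CATT was in 27.3% to 39.5% of the clusters of the transcripts over the 5 libraries and in 35.4% to 40.6% of all clusters. These shares were not adjusted for the length of the clusters and come from 22 to 73 clusters a library.

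Among 39 other iron genes, 9 met the target criteria in all 5 IGF2BP3 libraries, 24 in at least 1 and 15 in none. Of 20046 protein-coding genes, with or without a cluster, 1986 did in all 5 and 5919 in at least 1. The list was chosen with earlier results of these data known, so that it is not an independent sample of genes. The 9 genes were SLC39A14, a metal ion transporter, PCBP1 and PCBP2, which deliver iron to ferritin, NCOA4, the receptor for the breakdown of ferritin, FBXL5, which marks IREB2 protein for degradation, FECH, ISCU and GLRX5, of heme and iron-sulfur cluster synthesis, and HIF1A. PCBP2 had 712, 881, 921, 728 and 1124 CPM in the order of libraries used above, and NCOA4 had 206, 194, 124, 270 and 148 CPM. SLC40A1, which encodes the iron exporter ferroportin, HAMP, which encodes hepcidin, HJV, HEPH, CP, FTMT, ALAS2 and BMP6 had no cluster in any of the 6 libraries.

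Finally, for the 4 transcripts with clusters in all 5 libraries the most similar genes were sought by the Euclidean distance of log2(CPM) over these libraries, among 3446 genes. Nearest to TFRC were SMAD5 (0.27), SFT2D2 (0.46) and SMAD2 (0.47), and to IREB2 MEX3C (0.24), NT5E (0.37) and TRUB1 (0.40). FTH1 was closest to ARHGDIA (0.28), ZFP36L2 (0.32) and JPT2 (0.35), and FTL to MT-CO2 (0.41), LAPTM4B (0.49) and M6PR (0.52). The neighbours of FTH1 and FTL rest on levels that include the clusters with a copied window.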

How the data were processed

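The series holds 6 IR-PAR-CLIP libraries of HCT116 cells, 1 per condition, 5 of them of IGF2BP3. The authors removed PCR duplicates by unique molecular identifiers with UMI-tools 1.1.1, selected reads by length (Trimmomatic 0.30), mapped them by bowtie 0.12.7 on GRCh38 and called clusters in each library with PARalyzer. For each cluster, the deposited counts give its reads and its T-to-C events as whole numbers without normalization. The deposited mode score, a fraction, entered no result. How multiple matches were handled is not given in the sources used here, the study's file of PARalyzer settings was not used here, and bowtie does not align across splice junctions.

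From these counts, levels, regions, sites and elements were obtained in Python 3.11.15 (pysam 0.24.0, pandas 2.3.3, numpy 2.4.6, scipy 1.17.1), and figures with matplotlib 3.10.9. CPM was relative to the reads in clusters, which are not library sizes. Exact Poisson intervals at 95% cover counting error only. Where a cluster touched several features, 3′UTR went before coding sequence, and both before 5′UTR and other exons. The genes named were the 6 members, a list of 39 other iron genes, cell type markers, ferritin pseudogenes and the 3 nearest genes of each member by log2(CPM). The members and lists were chosen with earlier results of these data known. Gene assignment, target calls and the element search were tested on simulated data. The alternatives changed thresholds, denominators, transcripts, feature order, copies and overlaps. Without replicates no test was made.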

Additional observations from a re-analysis of the deposited data

Results flagged for a closer look

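Reads outside the exons of the 6 transcripts were not used in any comparison and had none in the IgG library, whose 324 reads are too few to set a background. With RNase I 0.05/0.05, annotated pseudogenes of FTH1 held 745 reads, at 0.493 conversion events per read, and those of FTL held 716 reads, at 0.609. Within FTL but outside its exons there were 65 reads in 3 clusters, in its last intron: 32 with RNase I 0.05/0.05, 9 with RNase I 0.1/0.025 and 24 with RNase T1 1/1.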

How the results depend on the processing

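No paired analysis was possible because each condition had 1 library. Counting a cluster to the coding sequence before the 3′UTR gave 3′UTR shares of 42.3%, 47.4%, 33.4%, 75.5% and 48.3% for the 6 transcripts in the libraries RNase I 0.05/0.05, 0.1/0.025, 0.05/0.025, RNase T1 1/1 and 0.25/0.25, against 63.1%, 60.1%, 57.7%, 85.8% and 56.1% in the order used. With the canonical transcript alone they were 54.8%, 53.0%, 48.6%, 77.4% and 50.2%, and by nucleotides, an alternative chosen after seeing the data, 47.4%, 49.3%, 43.9%, 77.0% and 49.8%. With reads on exons as denominator the summed level of the 6 transcripts was 2039, 1620, 2012, 1860 and 1975 CPM. Without clusters that hold a copied 30-nt window, also chosen after seeing the data, it was 886, 617, 654, 1218 and 806 CPM, since most ferritin clusters leave, and 0 transcripts were higher and 2, FTH1 and IREB2, lower with RNase I. For FTH1 this order cannot be told apart from the filter, which removes longer clusters more readily. At 0.75 conversion events per read, 2 and 3 transcripts met the criteria with RNase I 0.05/0.05 and 0.1/0.025. The median over clusters of conversion events per read was 0.610 with RNase I 0.1/0.025. Without RNase T1 0.25/0.25, 2 transcripts were higher and 3 lower with RNase I. With the whole loop required, 1, 3 and 0 elements were under clusters with RNase I 0.05/0.025, RNase T1 1/1 and 0.25/0.25, and within 50 nt there were 5, 5 and 5 with RNase I 0.1/0.025, RNase I 0.05/0.025 and RNase T1 0.25/0.25. The other 75 of 113 values of these results moved by less than their interval or 1.5 times. ACO1 and SLC11A2 rest on few reads in every library, and IgG is too shallow for a background.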
